A study of Mus musculus with 23 samples.

Results

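The mouse genome holds 39 Hox genes in 4 clusters, and each of them was measured on 23 one-colour Agilent arrays that follow skeletal muscle from embryonic stem cells to adult muscle. The members were found by name in the array files, as Hox, a cluster letter a to d and a paralogue number, which gave 39 genes on 43 of the 55681 probes of the array. The clusters hold 11, 10, 9 and 9 of these genes, on chromosomes 6, 11, 15 and 2. The first group was 3 lines of embryonic stem cells: cGR8 of strain 129Sv, RD1 of strain 129X1/SvJ and E14tg2 of the related strain Ola. The next were primary myoblasts of C57BL/6J mice at passage 0 and myoblasts of the same strain expanded to passages 8 to 10. Myotubes of C57BL/6J, plated on Matrigel, were of days 1, 2 and 4 of differentiation. The last group was whole quadriceps of 1 C57BL/6J and 2 129Sv/C57BL/6J mice. Each of the 7 groups had 3 samples. The line E14tg2 was on 2 arrays, which were averaged. Stem cells differ from the other groups in strain as well as in cell type, and these cannot be told apart. The 2 quadriceps samples of 129Sv/C57BL/6J share 129Sv in part with the line cGR8 and differ in strain from the C57BL/6J cultures. The part of strain in quadriceps against the cultures was not tested. The labels do not say how many animals gave the cells, and where samples are not from separate animals the p-values measure only technical spread.

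Hox genes encode homeodomain transcription factors that give cells along the head-to-tail axis and along the limb their positional identity. In a cluster the genes lie in the order in which they are switched on, with low-numbered genes first and more anterior and high-numbered genes later and more posterior, and a stretch of chromatin opens or stays under Polycomb repression with them. Adult cells, including muscle precursors and fibroblasts, keep part of the Hox code of the place they came from. Hox proteins bind DNA with cofactors of the Pbx, Meis and Pknox families.

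Levels are log2 of the processed signal relative to the 75th percentile of the same array, so that 0 is that percentile and each unit is a 2-fold step. Levels of different genes come from different probes and are not set against each other. A gene is called where limma gave a Benjamini-Hochberg adjusted p under 0.05 over all probes tested and a fold of at least 2. Testing required that all 3 samples of 1 of the groups compared were well above background. "At least" before a fold marks a lower bound, against a group in which no sample was above background.

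Some arrays limit or go against their labels. The array of expanded myoblast replicate 1 was dim, with a 75th percentile of 87.67 intensity units, and that of day 4 replicate 1 had 207.6, against 260.7 to 764.8 on the others. Background lies higher on the relative scale on these arrays, and genes at background look raised there. All myoblast, myotube and quadriceps samples are labelled male. Xist, the RNA that coats the inactive X chromosome of female cells, was nevertheless above background on passage 0 replicates 1 and 3, on all 4 arrays of culture 26 and on quadriceps replicate 3, where the Y-linked Ddx3y and Eif2s3y were not. On the culture 26 arrays Xist lay between 2.92 and 4.27 and Ddx3y between -6.40 and -6.16. On the 8 arrays of cultures 21 and 28 Xist was never above background, and Ddx3y lay between -1.18 and 2.77. Passage 0 replicate 2 had both, with Xist at 0.64 and Ddx3y at 1.68. Above background were 7 of 7 stem cell markers in every stem cell sample and 6 of 7 myoblast markers in every muscle lineage sample. Detection was not exclusive. In each muscle lineage sample 3 or 4 of the 7 stem cell markers were above background, and in each stem cell sample 3 or 4 of the 7 myoblast markers. The mean level of the stem cell markers was 4.44 to 4.55 in stem cells and -4.04 to -1.33 in expanded myoblasts. Against stem cells, expanded myoblasts and quadriceps each had 5 of these markers called lower and 1, Nanog, called higher. In stem cells Xist was at -2.79 to -2.02 with both Y-linked genes above background.

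Promoter sequences are shown for genes that moved together between cultures, described further on, with Hoxa7, which was above background in every sample, beside them. RefSeq's table of promoters, on GRCm38.p6, has windows for 22 of the 39 genes. Each window runs from 250 bases before the annotated start to 50 after it, in the direction of the gene. Capitals mark CG, the dinucleotide that carries DNA methylation in mammals. Hoxd8 is at chr2:74704365-74704664, Hoxd9 at chr2:74697513-74697812, Hoxd4 at chr2:74721728-74722027, Hoxb4 at chr11:96318017-96318316 and Hoxb8 at chr11:96281655-96281954, all on the plus strand, and Hoxa7 is at chr6:52218524-52218823 on the minus strand.
Hoxd8: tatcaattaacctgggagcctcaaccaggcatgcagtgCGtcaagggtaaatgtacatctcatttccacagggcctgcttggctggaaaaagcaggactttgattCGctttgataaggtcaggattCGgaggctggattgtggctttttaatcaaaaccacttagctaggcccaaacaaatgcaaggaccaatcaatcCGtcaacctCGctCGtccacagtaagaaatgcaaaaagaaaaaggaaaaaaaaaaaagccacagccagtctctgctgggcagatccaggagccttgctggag
Hoxd9: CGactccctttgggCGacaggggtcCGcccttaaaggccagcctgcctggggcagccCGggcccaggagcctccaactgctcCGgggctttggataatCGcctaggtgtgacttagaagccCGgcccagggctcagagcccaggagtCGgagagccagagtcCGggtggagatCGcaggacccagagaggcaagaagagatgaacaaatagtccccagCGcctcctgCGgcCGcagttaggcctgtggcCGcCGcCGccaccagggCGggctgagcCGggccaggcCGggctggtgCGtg
Hoxd4: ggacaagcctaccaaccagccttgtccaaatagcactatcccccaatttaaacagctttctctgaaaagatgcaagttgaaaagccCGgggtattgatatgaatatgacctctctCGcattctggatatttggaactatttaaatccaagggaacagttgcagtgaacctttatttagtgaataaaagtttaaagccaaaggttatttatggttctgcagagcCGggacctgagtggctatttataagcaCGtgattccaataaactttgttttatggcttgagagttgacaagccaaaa
Hoxb4: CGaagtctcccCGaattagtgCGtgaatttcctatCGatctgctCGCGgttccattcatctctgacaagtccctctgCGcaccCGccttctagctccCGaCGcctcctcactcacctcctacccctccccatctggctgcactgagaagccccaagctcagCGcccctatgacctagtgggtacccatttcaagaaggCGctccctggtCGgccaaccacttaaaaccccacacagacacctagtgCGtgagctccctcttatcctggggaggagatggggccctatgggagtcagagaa
Hoxb8: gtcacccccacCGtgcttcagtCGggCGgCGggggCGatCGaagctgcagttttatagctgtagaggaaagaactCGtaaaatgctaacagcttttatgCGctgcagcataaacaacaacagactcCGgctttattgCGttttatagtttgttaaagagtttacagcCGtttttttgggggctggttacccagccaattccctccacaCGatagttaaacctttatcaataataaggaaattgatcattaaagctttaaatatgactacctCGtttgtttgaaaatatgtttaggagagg
Hoxa7: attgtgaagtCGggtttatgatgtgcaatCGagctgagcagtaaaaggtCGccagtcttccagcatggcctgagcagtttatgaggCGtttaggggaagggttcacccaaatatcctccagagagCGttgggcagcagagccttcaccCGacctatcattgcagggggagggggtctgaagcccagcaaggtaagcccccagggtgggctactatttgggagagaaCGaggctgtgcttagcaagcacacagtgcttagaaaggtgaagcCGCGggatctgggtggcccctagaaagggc
These windows hold 6 CG in Hoxd8, 20 in Hoxd9, 4 in Hoxd4, 14 in Hoxb4, 13 in Hoxb8 and 9 in Hoxa7. Over the 24 windows of the 22 Hox genes the median was 14.5 CG and the range 4 to 45, against a median of 7 over all 32851 windows, of which 94.6% hold at least 1. The motif CANNTG, which reads the same on both strands and is the E-box that myogenic factors of the MyoD family bind, was in 17 of the 24 Hox windows (70.8%) and in 72.3% of all windows. Methylation and binding were not measured on these arrays.

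Which Hox genes were detected depended on cluster and on sample. Of the 39 genes, in 30 all samples of some group were above background. Hoxb1, Hoxd1, Hoxd11, Hoxd12 and Hoxd13 were above it on no sample, and Hoxd3 and Hoxd10 on 1 of 21 each. A core of 11 genes was above background in all 6 muscle lineage groups: Hoxa3, Hoxa6, Hoxa7, Hoxa9, Hoxa10, Hoxb6, Hoxc4, Hoxc6, Hoxc9, Hoxc10 and Hoxc11. The number of detected genes was 28, 29 and 30 in passage 0 myoblasts, against 12, 10 and 7 in stem cells. No Hoxd gene was detected in stem cells, and the genes of passage 0 myoblasts included all 11 of the Hoxa cluster and 8 of the 9 of Hoxc in every sample.

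**Figure D1:**
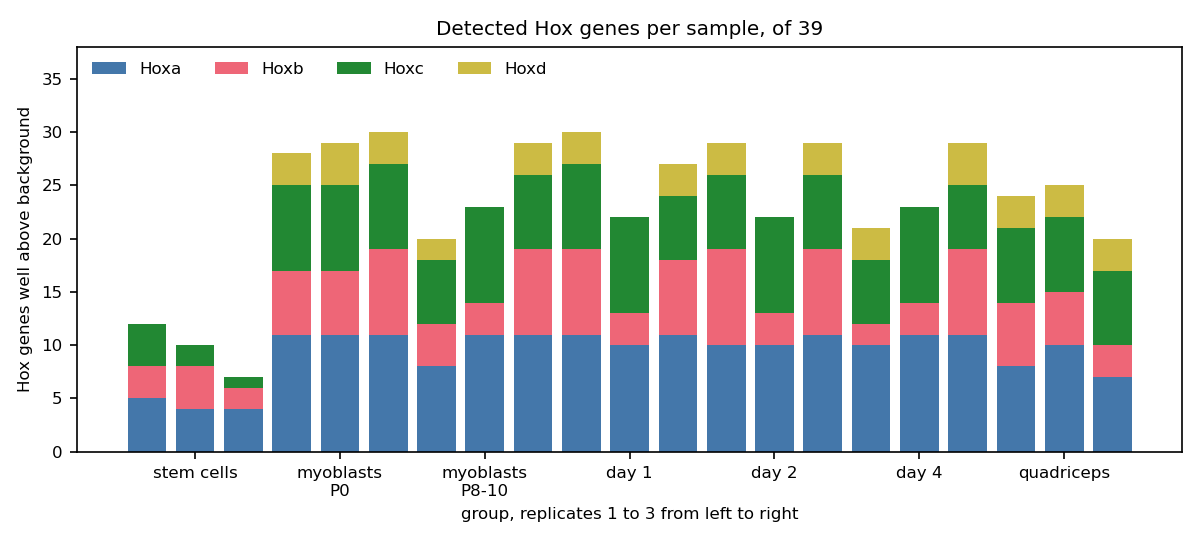
Number of Hox genes well above background in each of 21 samples, stacked by cluster, with replicates 1 to 3 from left to right in each group. Stem cells show 7 to 12 genes and passage 0 myoblasts 28 to 30, and replicate 2 of expanded myoblasts and of each day of myotubes shows 22 or 23 genes and none of Hoxd.

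**Figure D2:**
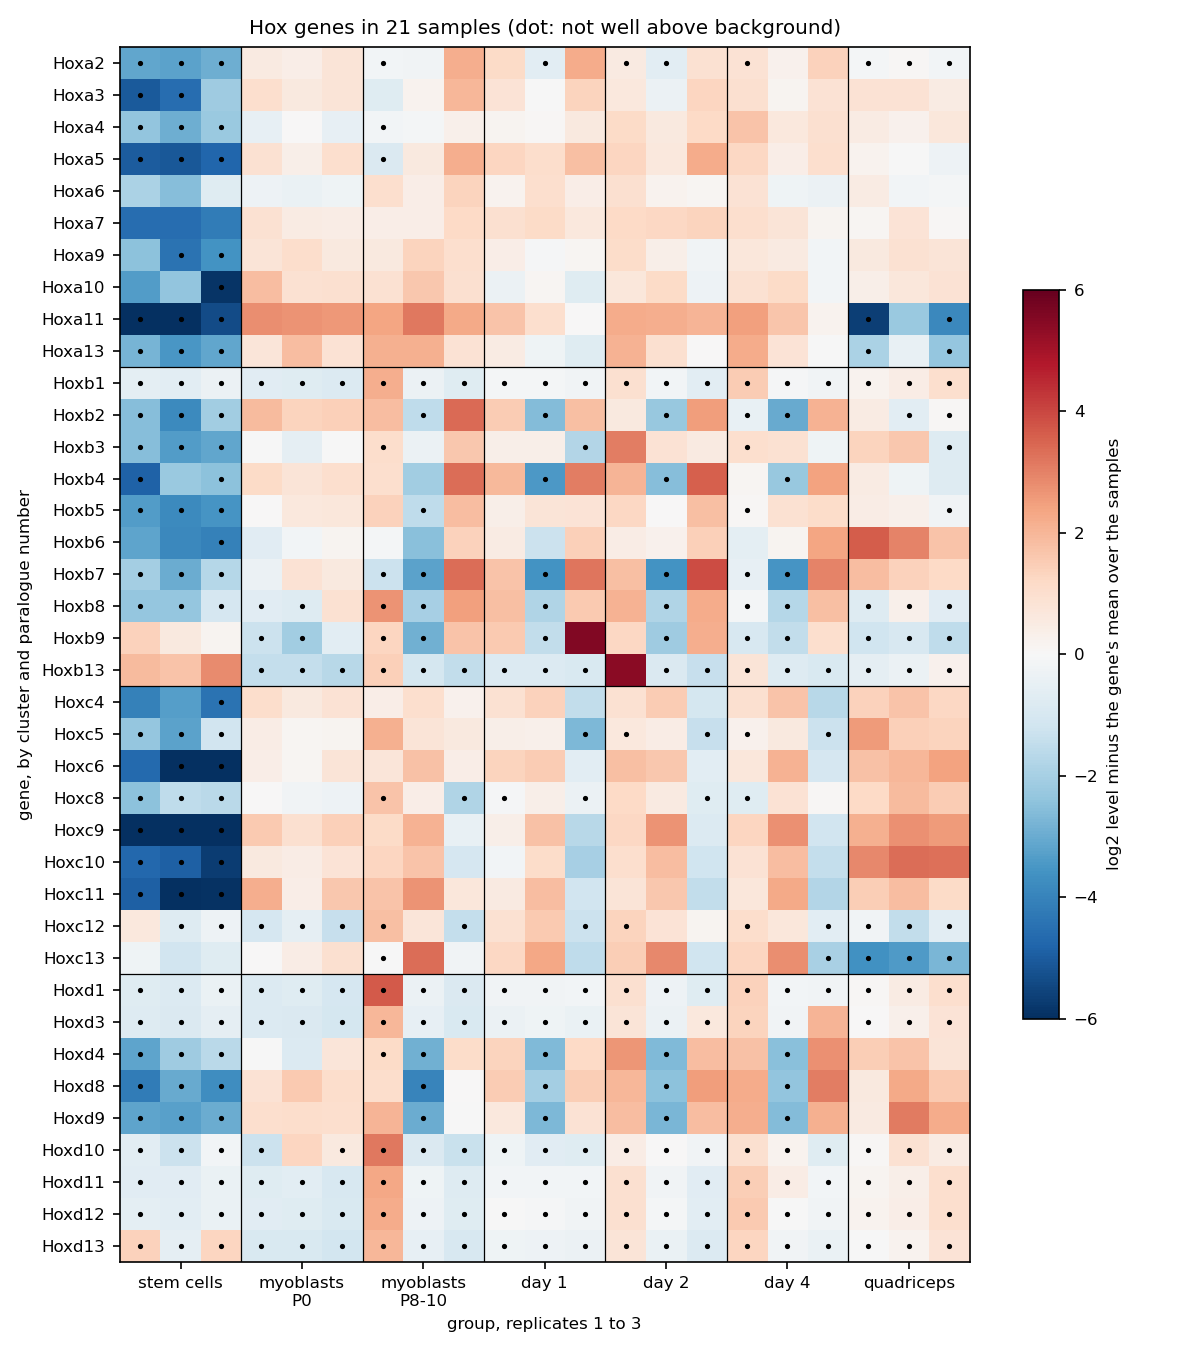
Level of each of 38 Hox genes in 21 samples, as the log2 level minus that gene's own mean over the samples, with a dot where the gene was not well above background. Colours at dots are background, which lies higher on the dim arrays of expanded myoblast replicate 1 and day 4 replicate 1, and the stem cell columns are low for most Hoxa and Hoxc genes.

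Passage 0 cultures held more RNA of all Hoxa genes, of most Hoxc genes and of part of the Hoxb and Hoxd clusters than stem cells. In passage 0 myoblasts 24 of the 30 tested Hox genes were called higher than in stem cells and 1 was called lower, where 38.1% of all tested probes were called, 17.5% higher and 20.6% lower. Of the 24, 15 were above background in no stem cell sample and so entered the test through the myoblasts alone, and 3 were above it in every sample of both groups. The median change of the tested members was 4.17, or 3.00 with bounds in place, against -0.27 over all probes. By cluster, 11 of 11 tested Hoxa genes, 4 of 8 Hoxb, 7 of 8 Hoxc and 2 of 3 Hoxd genes were called higher. Markers of some other cell types were higher in the same comparison, 5 of 9 tested for fibroblasts, 4 of 5 for smooth muscle and pericytes and 3 of 6 for leukocytes. The smooth muscle marker Cnn1 was called lower, and so were all 4 tested endothelial markers. The mean level of 11 fibroblast markers was -1.34 to 0.63 in passage 0 myoblasts and -2.84 to -2.07 in stem cells, and that of 6 smooth muscle and pericyte markers was 0.18 to 0.57 in passage 0 myoblasts and -2.83 to -1.58 in stem cells. For 6 leukocyte markers it was -2.90 to 0.15 in passage 0 myoblasts and -4.40 to -4.22 in stem cells. The part of these cells in the Hox differences was not tested.

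Hoxa11, which patterns the forearm and lower leg, was at 2.54, 2.43 and 2.35 in passage 0 myoblasts and at -6.20, -6.59 and -5.63, all background, in stem cells. The groups lie far apart, and the fold was at least 134 (log2 change 8.58 ± 0.68 SE, limma adjusted p = 1.4e-08). Hoxc9, a thoracic gene, was at 2.61, 1.98 and 2.45 in passage 0 myoblasts, against background at -6.58, -5.99 and -5.08 in stem cells, a fold of at least 126 (limma adjusted p = 2.3e-06). Hoxc6, a gene of trunk identity, was at 1.26, 0.96 and 1.66 in passage 0 myoblasts and at -3.79, -5.60 and -5.13 in stem cells, of which the first was above background, and rose 70.0-fold (limma adjusted p = 4.2e-06), or 49.3-fold with the other 2 stem cell samples at the dimmest probe above background. Hoxc11, a gene of lumbosacral identity, was at 1.60, -0.15 and 1.06 in passage 0 myoblasts and at background in stem cells, at -5.44, -6.82 and -6.48, a fold of at least 44.2 (limma adjusted p = 8.3e-06). In all of these every myoblast sample lay above every stem cell sample. Hoxa7, measured in all samples, was at 3.20, 2.75 and 2.73 in passage 0 myoblasts and at -2.29, -2.30 and -1.91 in stem cells, 33.4-fold higher (log2 change 5.06 ± 0.33 SE, limma adjusted p = 1.8e-09).

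Hoxb13, the most posterior gene of its cluster, went the other way. It was at -6.78, -6.77 and -6.99 in passage 0 myoblasts, none above background, and at -3.44, -3.65 and -2.49 in stem cells, all above it. The groups did not overlap, and the level was at least 3.14-fold lower in myoblasts (limma adjusted p = 0.020). That call was lost without stem cell replicate 3, without passage 0 replicate 3, without the samples that go against their label of male, with normexp and with the authors' log2 values. The tested genes that were not called in this comparison were Hoxb4, Hoxb7, Hoxb9, Hoxc13 and Hoxd4.

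At passages 8 to 10, 15 of 19 tested Hox genes were called higher than in stem cells and 0 lower, where 35.4% of all probes were called, 14.9% higher and 20.5% lower. Of the 15, 6 were above background in no stem cell sample, and 3 were called where signal was required in all samples of both groups. Hoxa11, at 2.12, 2.91 and 2.03, was at least 127-fold higher (limma adjusted p = 1.8e-08), and Hoxc6, at 1.57, 2.62 and 1.25, was 100.0-fold higher (limma adjusted p = 2.0e-06), or 70.7-fold on the same terms. Hoxc9 had 2.15, 3.11 and 0.56, at least 95.0-fold higher (limma adjusted p = 5.1e-06), and Hoxc11 had 1.15, 2.13 and 0.11, at least 54.2-fold higher (limma adjusted p = 6.5e-06). The lowest of the 3 values of these genes was each time that of culture 28. Quadriceps had 18 of 24 tested Hox genes called higher than stem cells and 1 lower, where 55.4% of all probes were called, 24.9% higher and 30.4% lower. Of the 18, 10 were above background in no stem cell sample, and 2 genes were called where signal was required in both groups. All 3 comparisons share the stem cell samples.

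Folds of 3 Hoxc genes and Hoxb6 led in quadriceps where a bound was taken for genes at background in stem cells; Hoxc11, with a bound of 47.0-fold, cannot be ranked against Hoxb6. Hoxc9, at 3.17, 3.78 and 3.59 in quadriceps, was at least 282-fold above the stem cells (limma adjusted p = 2.5e-07), and Hoxc10, a gene of hindlimb and lumbar identity, at 2.19, 2.63 and 2.57, was at least 137-fold above them (limma adjusted p = 4.1e-07). Hoxc6, at 2.64, 2.85 and 3.28, was 217-fold higher (limma adjusted p = 1.3e-07), or 153-fold on those terms. Hoxb6 was at 3.28, 2.58 and 1.33 in quadriceps and at -3.54, -4.22 and -4.42 in stem cells, 87.8-fold higher (limma adjusted p = 6.6e-06). The quadriceps samples lay above all stem cell samples for these 4 genes.

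Hoxa11 and Hoxa13 were lower and Hoxc10 was higher in quadriceps than in cultured cells. Against day 4 myotubes 1 of 23 tested Hox genes was called higher and 3 were called lower, where 31.0% of all probes were called, 15.2% higher and 15.9% lower. Against passage 0 myoblasts 3 of 28 were called higher and 4 lower, where 44.4% of all probes were called, 22.4% higher and 21.9% lower. Both shares of Hox genes lie below the share of all probes. The comparisons share the quadriceps samples.

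Hoxa11 was at -5.90, -2.47 and -4.10 in quadriceps, of which only the second was above background, against 2.21, 1.44 and -0.02 in day 4 myotubes and 2.54, 2.43 and 2.35 in passage 0 myoblasts. All quadriceps values lay below all values of cultured cells. The log2 change was -5.37 ± 0.68 (SE) against day 4 myotubes (limma adjusted p = 7.8e-06) and -6.60 ± 0.68 against passage 0 myoblasts (limma adjusted p = 4.0e-07). With the 2 quadriceps arrays at background set at the dimmest probe above it, the changes were -4.36 and -5.59.

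Hoxa13, the most distal limb gene of the cluster, was at -4.93, -3.47 and -5.36 in quadriceps, of which only the second was above background, against -0.79, -2.22 and -3.06 in day 4 myotubes and -2.31, -1.18 and -2.17 in passage 0 myoblasts. The groups did not overlap, and the log2 change was -2.56 ± 0.64 against day 4 (limma adjusted p = 0.0044) and -2.70 ± 0.64 against passage 0 (limma adjusted p = 0.0020). With the arrays at background set at the dimmest probe above it, the changes were -1.46 and -1.60. Its call did not hold with normexp background correction (adjusted p of 0.16 against day 4 and 0.146 against passage 0) or without the samples that go against their label of male (0.133 and 0.0943). Hoxc13 was at background in all quadriceps samples and at -2.31, -1.88 and -1.36 in passage 0 myoblasts, at least 3.25-fold lower in quadriceps (limma adjusted p = 0.016). It was at -1.04, 0.46 and -4.26 in day 4 myotubes, the last at background, and was not tested there. The call of Hoxc13 was lost with normexp (adjusted p = 0.288), with the authors' log2 values (0.11), without the samples that go against their label of male (0.0824) and without passage 0 replicate 3 (0.0518). Without that replicate the count of called Hox genes against passage 0 was 4 instead of 7.

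Hoxc10 was at 2.19, 2.63 and 2.57 in quadriceps, against 0.15, 1.16 and -2.12 in day 4 myotubes and -0.13, -0.27 and 0.13 in passage 0 myoblasts. Every quadriceps value lay above every value of the cultured cells. It was 6.64-fold above day 4 (log2 change 2.73 ± 0.91 SE, limma adjusted p = 0.026) and 5.86-fold above passage 0 (2.55 ± 0.91, limma adjusted p = 0.028). Against passage 0 its adjusted p was 0.0501 to 0.0722 without any 1 of the passage 0 samples or without quadriceps replicate 2 or 3. Against day 4 it was 0.142 without day 4 replicate 3, and 0.0734 and 0.0685 without quadriceps replicates 2 and 3. Hoxb6 was at 3.28, 2.58 and 1.33 in quadriceps and at -1.07, -0.56 and -0.19 in passage 0 myoblasts, 8.01-fold higher without overlap (limma adjusted p = 0.010). Without the samples that go against their label of male the calls against passage 0 were lost for Hoxb6 (adjusted p = 0.0528) and Hoxc10 (0.177), and that of Hoxc10 against day 4 (0.0515). In day 4 myotubes it was at -0.94, -0.23 and 1.97, where the last lies among the quadriceps values. Hoxc8, at -2.78, -2.10 and -2.49 in quadriceps and -3.98, -4.19 and -4.30 in passage 0 myoblasts, was 3.25-fold higher (limma adjusted p = 0.044), a call that was lost without any 1 of the 6 samples.

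**Figure D3:**
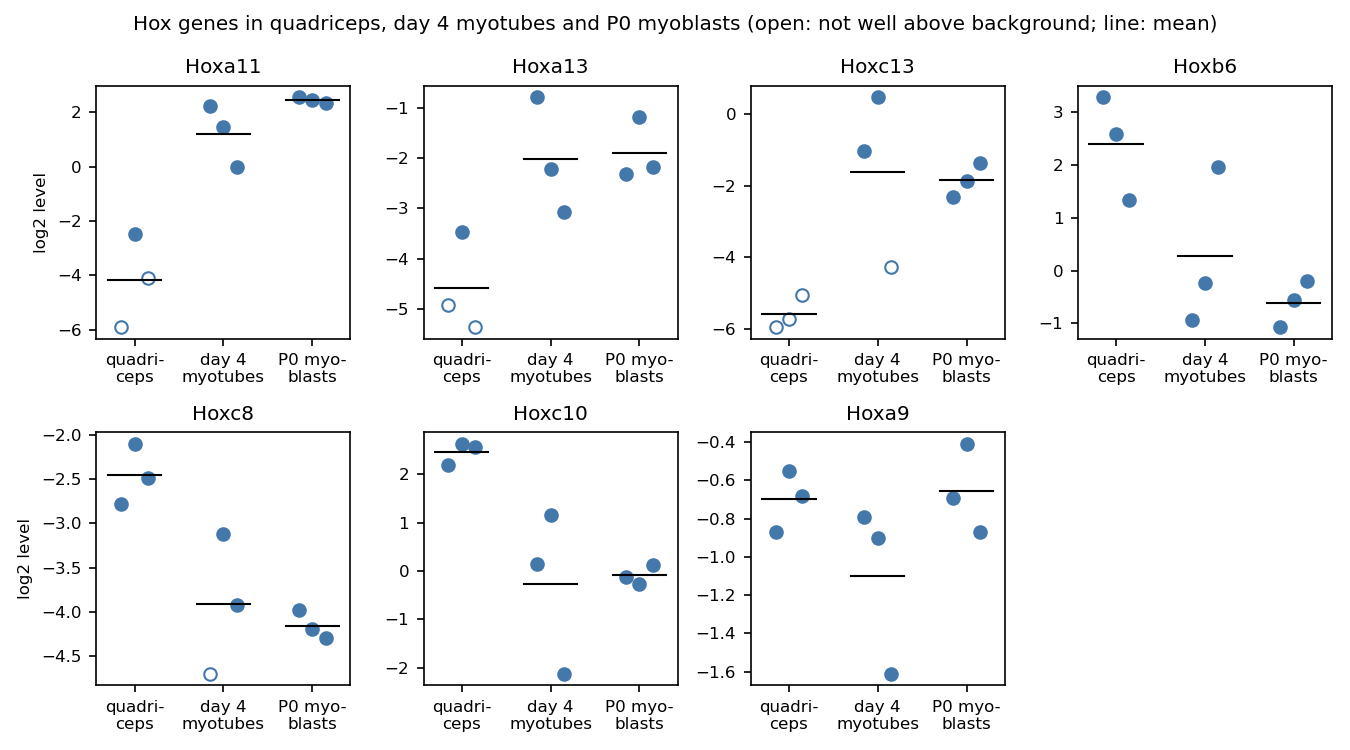
Log2 levels of 7 Hox genes in each sample of quadriceps, day 4 myotubes and passage 0 myoblasts, with open points where the gene was not well above background and a line at the mean of 3 samples. Hoxa11 lies below all cultured samples in quadriceps and Hoxc10 above them, and Hoxa9 is shown as a gene with no call.

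Markers of fibroblasts and endothelium were higher in whole muscle than in the cultures. A lower level in bulk tissue can mean fewer cells of a type or less RNA per cell, which cannot be told apart. The mean level over the 11 fibro-adipogenic and fibroblast markers was 3.04 to 3.76 in quadriceps with 10 or 11 above background, against -2.85 to -2.02 in day 4 myotubes with 5 to 7 above it and -1.34 to 0.63 in passage 0 myoblasts with 9. Over 6 endothelial markers it was 1.15 to 1.92 in quadriceps, against -3.31 to -2.22 in day 4 myotubes and -4.51 to -3.37 in passage 0 myoblasts. Leukocyte markers were not higher in quadriceps than at passage 0. Over 6 of them the mean was -2.16 to -1.48 in quadriceps, -5.24 to -4.01 in day 4 myotubes and -2.90 to 0.15 in passage 0 myoblasts. The part of these cells in the Hox differences was not tested.

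Hox genes differed between the cultures that were expanded and differentiated. The titles of expanded myoblasts and of myotubes carry the numbers 21, 26 and 28, each once per stage, and the labels do not say what the numbers mark. These arrays were compared between numbers with the stage as a block, over 12 arrays, a comparison chosen after the values were seen. The arrays of 1 number are called a culture here for short. The p-values cover the spread between the 4 stages within these 3 numbers and not that between animals. Between cultures 26 and 28, 12 of 31 tested Hox genes were called, 4 higher and 8 lower in culture 26, where 0.289% of all tested probes were called, 0.0863% higher and 0.203% lower. Of the 8 lower genes 7 were above background on no array of culture 26 and so entered the test through culture 28 alone, and 3 genes were called where signal was required on all arrays of both. The 4 arrays of culture 26 did not overlap those of culture 28 for 19 of the 31 genes (61.3%), where that held for 8.26% of all tested probes. Of the 77 probes called, 13 were Hox probes, 5 were other probes inside the Hox clusters and 10 were for Xist or Y-linked genes.

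The genes went by cluster. All 5 called Hoxb genes and all 3 called Hoxd genes were lower in culture 26, and all 4 called Hoxc genes were higher in it. Of 11 tested Hoxa genes 0 were called, with 4 of them at an unadjusted p below 0.05 with a 2-fold change. Of all tested probes 5.23% passed that unadjusted threshold. The median log2 difference of the tested genes was 0.06 in Hoxa, -4.23 in Hoxb, 2.40 in Hoxc and -4.40 in Hoxd. The medians of Hoxb and Hoxd take in signals at background in culture 26, and the bounds given below for single genes are smaller.

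**Figure D4:**
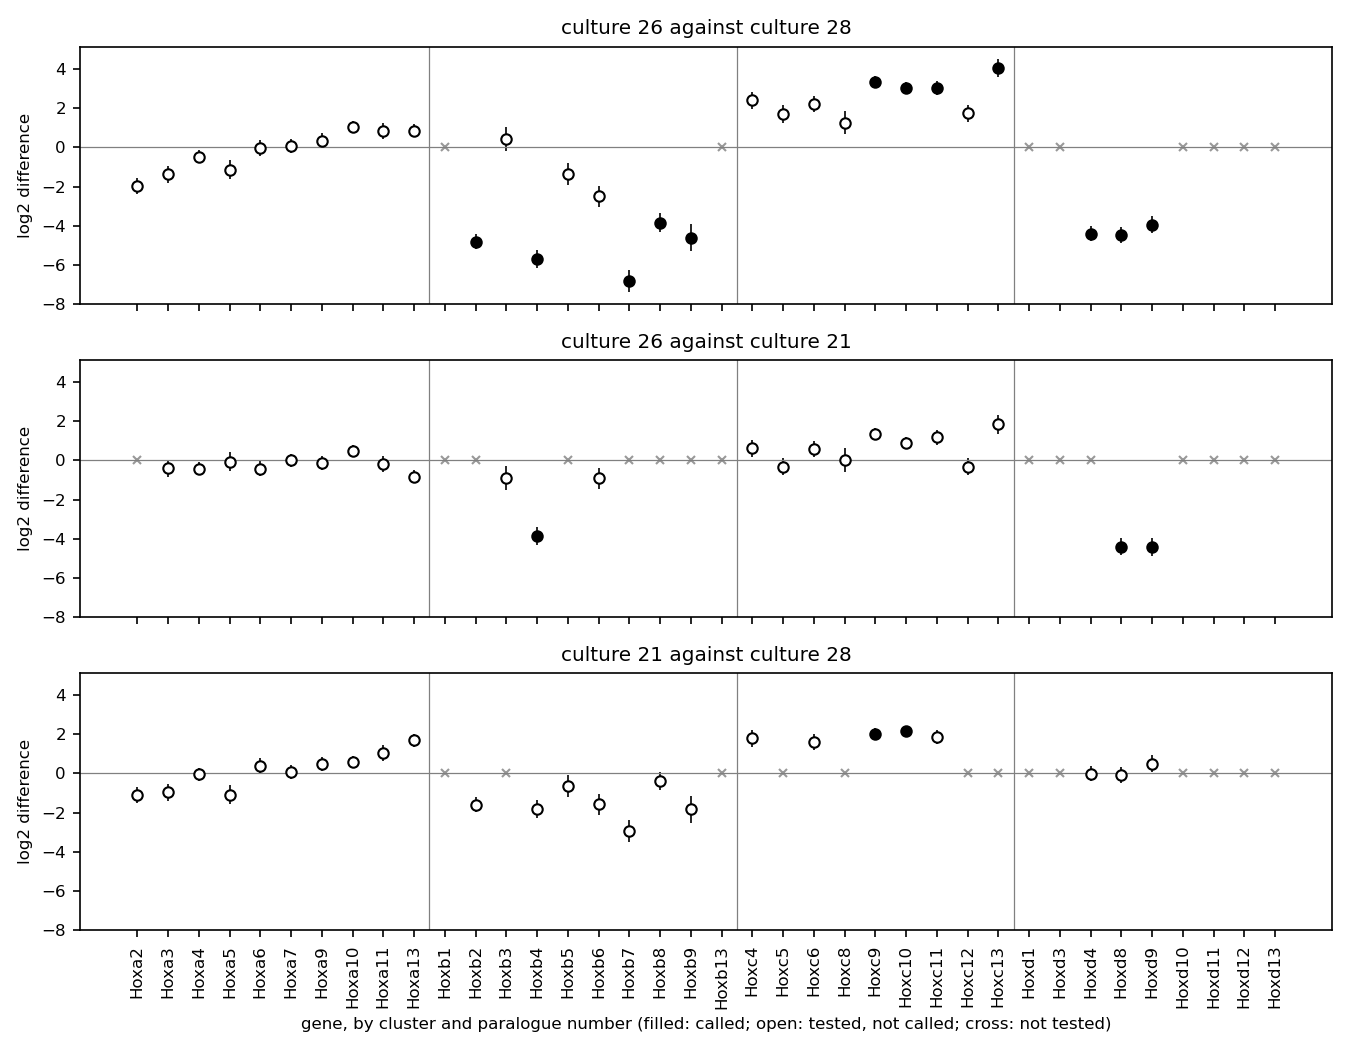
Log2 difference of each of 38 Hox genes between cultures over 4 stages, with its standard error, ordered by cluster and paralogue number. Filled points were called, open points were tested and not called, and crosses were not tested. In culture 26 against culture 28 the filled points of Hoxb and Hoxd lie between -6.84 and -3.84 and those of Hoxc between 3.02 and 4.05. Those of Hoxb and Hoxd rest on signals at background on all or most arrays of culture 26 and are not bounds.

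Hoxd8, which acts in the trunk, was at -6.34, -4.42, -4.87 and -4.76 in culture 26 at passages 8 to 10 and days 1, 2 and 4, all background. It was at -2.35, -0.92, 0.12 and 0.67 in culture 28 and at -1.34, -0.89, -0.41 and -0.15 in culture 21, all above background. Culture 26 lay below both at each stage, at least 12.1-fold below culture 28 (limma adjusted p = 0.00075) and at least 11.4-fold below culture 21 (adjusted p = 0.0015). Its neighbour Hoxd9, which helps to pattern the upper limb segment, was at -6.53, -6.24, -6.32 and -6.16 in culture 26, again background. It was at -3.60, -2.71, -1.73 and -1.45 in culture 28 and at -1.53, -2.91, -1.71 and -1.40 in culture 21. The fold was at least 3.58 against culture 28 (limma adjusted p = 0.0035) and at least 5.02 against culture 21 (adjusted p = 0.0021). Hoxd4, a neck-level gene, was at background on all 4 arrays of culture 26 and above it on all 4 of culture 28, at -2.31, -2.21, -1.58 and -0.69, at least 5.73-fold lower in culture 26 (limma adjusted p = 0.00047). The calls between cultures 26 and 28 were lost with normexp for Hoxd4 (adjusted p = 0.0572) and Hoxd9 (0.146), and with the authors' log2 values for Hoxd4 (0.0943).

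In the Hoxb cluster the low genes of culture 26 ran along most of the cluster. Hoxb4, a gene of the neck, was at -4.07, -5.41, -4.52 and -4.25 in culture 26, of which the first was above background. It was at 1.40, 1.09, 1.61 and 0.44 in culture 28 and at -0.98, -0.03, 0.07 and -1.85 in culture 21. The 3 cultures did not overlap, and culture 26 was 51.8-fold below culture 28 (limma adjusted p = 0.00039) and 14.6-fold below culture 21 (adjusted p = 0.0068), or 38.5- and 10.8-fold with the 3 arrays at background set at the dimmest probe above it. Hoxb7 was at -5.80, -6.15, -6.19 and -6.11 in culture 26, all background, and at 0.77, 0.61, 1.35 and 0.38 in culture 28, at least 31.9-fold lower in culture 26 (limma adjusted p = 0.00045). Hoxb2, a hindbrain gene, was lower at least 13.7-fold (adjusted p = 0.00031), Hoxb9 at least 9.28-fold (adjusted p = 0.026) and Hoxb8 at least 3.17-fold (adjusted p = 0.0061), each at background on all 4 arrays of culture 26 and above it on all 4 of culture 28. The call of Hoxb7 was lost with quantile normalization (adjusted p = 0.0753), that of Hoxb9 in 12 of 18 alternatives, among them 7 of the 12 single arrays left out, and that of Hoxb8 in 4, among them without the day 4 array of culture 28. Hoxb5 and Hoxb6 were not called, and Hoxb6 was above background on all 4 arrays of each culture, at -2.90, -1.68, -0.11 and -0.23 in culture 26 and at 1.03, 1.04, 1.04 and 1.97 in culture 28 (adjusted p = 0.14).

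The Hoxc genes were lowest in culture 28. Hoxc9 was at 3.11, 2.80, 3.72 and 3.76 in culture 26 and at 0.56, -0.62, 0.20 and -0.11 in culture 28, with 2.15, 1.37, 2.28 and 2.29 in culture 21. The 3 cultures did not overlap, and culture 26 was 10.1-fold above culture 28 (limma adjusted p = 0.00092). Hoxc10 was at 0.98, 0.41, 1.15 and 1.16 in culture 26 and at -1.71, -2.72, -1.91 and -2.12 in culture 28, 8.25-fold higher in culture 26 (limma adjusted p = 0.0011). Hoxc11 was at 2.13, 1.27, 1.04 and 1.70 in culture 26 and at 0.11, -1.71, -2.02 and -2.33 in culture 28, 8.13-fold higher (adjusted p = 0.0057). Hoxc13, the gene of hair and nail and the most posterior of the cluster, was at 1.01, -0.01, 0.55 and 0.46 in culture 26 and at -2.55, -3.86, -3.52 and -4.26 in culture 28, the last at background, 16.6-fold higher (adjusted p = 0.0051). Under quantile normalization Hoxc13 was not called (adjusted p = 0.166). Hoxc4, Hoxc6, Hoxc8 and Hoxc12 did not overlap either, at adjusted p of 0.074, 0.069, 0.52 and 0.25.

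Culture 21 lay between the others in its mean level of Hoxc9, at 2.02 against 3.35 and 0.01 in cultures 26 and 28, and of Hoxc10, Hoxc11 and Hoxc13. Both dim arrays, expanded myoblast replicate 1 and day 4 replicate 1, are of culture 21. The part of array brightness in its differences was not tested. An unadjusted p below 0.05 with a 2-fold change was reached by 13.1% of all tested probes between cultures 21 and 28, against 5.23% between 26 and 28. Hoxc5 and Hoxc12 were at background on 2 and 3 of its 4 arrays. Against culture 28, 2 of 26 tested Hox genes were called, Hoxc9 (4.04-fold, limma adjusted p = 0.050) and Hoxc10 (4.43-fold, adjusted p = 0.038), both higher in culture 21, where 0.140% of all probes were called, 0.101% higher and 0.0388% lower. The arrays did not overlap for 7 of the 26 genes (26.9%), against 7.69% of all probes. Each call was lost in 13 of 18 alternatives, and with 1 array left out the count was 0 to 3, and 0 for each array but the passage 8 to 10 array of culture 21. The arrays of both cultures carry Y-linked and no Xist signal. Culture 26 against culture 21 gave 3 of 24 called, Hoxb4, Hoxd8 and Hoxd9, all lower in culture 26, where 0.438% of all probes were called, 0.138% higher and 0.300% lower. The arrays did not overlap for 6 of the 24 genes, against 2.37% of all probes. The call of Hoxb4 was lost without the day 2 array of culture 26 (adjusted p = 0.0513) and with the authors' log2 values (adjusted p = 0.0529).

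**Figure D5:**
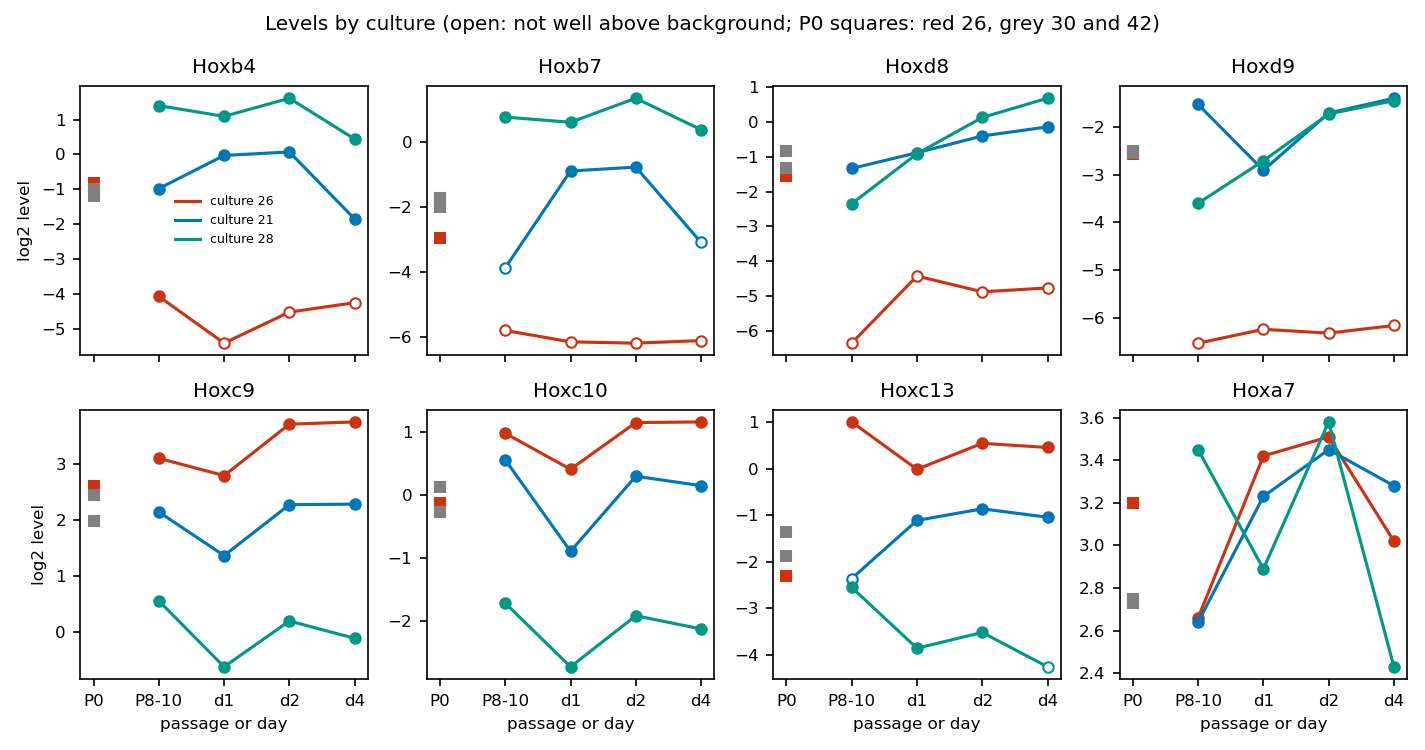
Log2 levels of 8 Hox genes in cultures 26, 21 and 28 at passages 8 to 10 and days 1, 2 and 4, joined by lines, with the 3 passage 0 samples as squares at the left and open points where the gene was not well above background. Culture 26 lies lowest for Hoxb4, Hoxb7, Hoxd8 and Hoxd9 and highest for Hoxc9, Hoxc10 and Hoxc13, and Hoxa7 shows no such order.

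Passage 0 replicate 1 carries the number 26 in its title too, yet it did not share the low Hoxb and Hoxd levels. Its Hoxd8 was at -1.55, Hoxd9 at -2.57, Hoxb4 at -0.82 and Hoxb7 at -2.94, all above background. Replicates 2 and 3 of passage 0, numbered 30 and 42, had Hoxd8 at -0.83 and -1.32 and Hoxb4 at -1.18 and -0.98. In passage 0 the 3 samples thus lay close together for these genes, where the expanded cultures did not. With 1 sample of a number at passage 0, the change within number 26 has no test.

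Culture 26 also differs from the other numbers in its Xist and Y-linked signal, and culture and this difference cannot be told apart among the 12 arrays. Passage 0 replicates 1 and 3 and quadriceps replicate 3, which share the Xist signal without Y-linked genes, had Hoxd8 above background at -1.55, -1.32 and -0.82, Hoxd9 at -2.57, -2.54 and -1.32, and Hoxb4 at -0.82, -0.98 and -2.76. These samples are of passage 0 or of whole muscle. The part of the Xist and Y-linked difference in the Hox levels was not tested. The 3 slides were spread over the 3 cultures, and with the slide as a further block 11 Hox genes were called between cultures 26 and 28. With 1 of the 12 arrays left out the count was 10 to 15. Among cell type markers 0 of 7 tested fibroblast markers, 0 of 7 myotube markers and 0 of 6 myoblast markers were called between cultures 26 and 28 by limma, with 1, 1 and 0 at an unadjusted p below 0.05 with a 2-fold change. Of all tested probes 0.289% were called and 5.23% passed the unadjusted threshold. Lists this short cannot show whether the cultures differ in cell types.

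Lists of flanking genes and regulators are so short that the share of all probes called between cultures 26 and 28, 0.289%, amounts to less than 1 gene in each. Of 11 tested genes that flank the clusters 0 were called by limma, with 1 at an unadjusted p below 0.05 with a 2-fold change and a median log2 difference of 0.07. Of 8 cofactors and of 19 chromatin regulators 0 were called, with 0 and 0 unadjusted. Of 9 tested genes of limb and trunk position 0 were called, but 4 passed the unadjusted threshold. Of 6 tested upstream signals 0 were called and 1 passed it. Over all tested probes the unadjusted share was 5.23%. Transcripts inside the clusters were called. AI448005, a transcript of the Hoxd cluster, was at background on all 4 arrays of culture 26 and at -2.73, -1.85, -0.67 and 0.49 in culture 28, at least 8.14-fold lower in culture 26 (adjusted p = 0.0015). A forward-strand transcript of the Hoxb cluster without a gene symbol has 3 probes, at chr11:96175777-96175836, chr11:96175838-96175897 and chr11:96175970-96176029 on mm9, and all 3 were called lower in culture 26, by at least 6.42-, 3.35- and 7.53-fold.

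Few Hox genes were called for expansion and differentiation. Between expanded and passage 0 myoblasts 0 of 28 tested Hox genes were called by limma, where 0.829% of all probes were called, 0.309% higher and 0.520% lower. At an unadjusted p below 0.05 with a 2-fold change there was 1 of the 28 Hox genes, and 3673 of all 27863 tested probes. The median change of the tested members was 0.02, but the 3 expanded cultures spread widely for Hoxb and Hoxd, which widens the error of their means. The gene past the unadjusted threshold was Hoxa6, at -0.96, -1.54 and -0.61 in expanded myoblasts and at -2.26, -2.36 and -2.21 in passage 0 myoblasts, without overlap (log2 change 1.24 ± 0.45 SE, adjusted p = 0.22).

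Between day 1 myotubes and expanded myoblasts 0 of 20 tested Hox genes were called by limma, where 8.20% of all probes were called, 5.32% higher and 2.88% lower. The fit had no term for culture, so the spread between the cultures is part of the error for each day of myotubes. At an unadjusted p below 0.05 with a 2-fold change there were 4 of the 20 Hox genes, and 3988 of all 25737 tested probes. The 4 Hox genes were Hoxa10, Hoxa11, Hoxa13 and Hoxc5. Their log2 changes were -1.47, -1.69, -1.89 and -1.85, at limma adjusted p of 0.079 to 0.20. Hoxa13 was at -2.54, -3.30 and -3.75 at day 1 and at -0.89, -0.91 and -2.14 in expanded myoblasts, without overlap. Hoxa11 was at 1.46, 0.74 and -0.20 at day 1 and at 2.12, 2.91 and 2.03 in expanded myoblasts, also without overlap.

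At day 2, 1 of 21 tested Hox genes was called higher than in expanded myoblasts, where 24.2% of all probes were called, 14.6% higher and 9.64% lower. The call was lost in 15 of 20 alternatives. At day 4 Hoxa4, a neck-level gene, alone was called of 18 tested, where 24.4% of all probes were called, 14.2% higher and 10.2% lower. It was at -0.76, -1.85 and -1.50 at day 4 and at -2.65, -2.61 and -2.16 in expanded myoblasts, the first of these at background, without overlap (2.15-fold, limma adjusted p = 0.023). With that array set at the dimmest probe above background, Hoxa4 was 1.8-fold higher, under the fold required for a call. Its adjusted p was 0.0633 without expanded replicate 2 and 0.135 without day 4 replicate 1, which has a dim array, and the call was lost in 8 of 20 alternatives.

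Several genes had 2 probes. For Hoxa9 both were called in passage 0 myoblasts and quadriceps against stem cells, with log2 changes of 4.29 and 3.37 in passage 0. For Hoxa13 the second probe, at chr6:52208856-52208915 on mm9, was above background on passage 0 replicate 3 and expanded replicate 1 only, so that the gene rests on the brighter probe. The mean of the 2 probes did not give a call for Hoxa13 in quadriceps. For Hoxb3 the probes disagreed between cultures. The probe at chr11:96209002-96209061 was at background on all 4 arrays of culture 26 and at -1.46, -2.35, -1.73 and -2.50 in culture 28, at least 4.61-fold lower in culture 26 (adjusted p = 0.00029). The brighter probe, at chr11:96207114-96207173, was at -3.67, -2.93, -2.42 and -2.36 in culture 26 and at -1.66, -5.04, -2.78 and -3.55 in culture 28, overlapping and not called.

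The cluster spans hold 40 probes with other names. Hoxa11as, the antisense transcript of Hoxa11, was at 4.75, 4.86 and 4.60 in passage 0 myoblasts and at -2.67, -3.42 and -2.66 in stem cells (log2 change 7.65 ± 0.51 SE, limma adjusted p = 2.0e-09). It was at 2.58, 1.78 and 1.62 at day 1 and at 4.77, 5.49 and 4.27 in expanded myoblasts, and fell by 2.85 ± 0.51 (adjusted p = 0.0018). In quadriceps it was at -1.75, -0.31 and -0.90, against 3.11, 2.20 and 1.26 at day 4, a log2 change of -3.17 ± 0.51 (adjusted p = 9.5e-05). No group overlapped its comparison group for Hoxa11as here. HOTAIR, a long noncoding RNA of the Hoxc cluster known for repression of Hoxd genes in human fibroblasts, has 5 probes. In passage 0 myoblasts 4 of them were called higher than in stem cells, by at least 2.47- to 5.48-fold. The other, A_30_P01022414, was above background on every sample and was not called, at -1.23, -1.46 and -0.95 in passage 0 myoblasts and -1.33, -2.39 and -2.05 in stem cells, which overlap. ENSMUST00000155922 on the plus strand, whose probe overlaps that of Hoxa3 on the minus strand, was at -1.14, -0.27 and -0.60 at day 2 and at -3.03, -3.27 and -2.21 in expanded myoblasts (log2 change 2.16 ± 0.41, adjusted p = 0.00081), and at background in all quadriceps samples.

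Of the Hox cofactors 6 of 8 tested genes were higher and 1 was lower in passage 0 myoblasts than in stem cells, where 38.1% of all probes were called, led by Pknox2 (19.6-fold) and Meis1 (6.53-fold) higher and Pbx4 (4.61-fold) lower. In expanded against passage 0 myoblasts 1 of 8 was higher, Pbx4, where 0.829% of all probes were called. In quadriceps against day 4 myotubes, where 31.0% of all probes were called, 0 of 7 were higher and 2 were lower, Pbx3 (6.49-fold) and Pbx2 (2.26-fold). Of 19 tested chromatin regulators of Hox genes 1 was higher in passage 0 myoblasts than in stem cells and 6 were lower, among them Jarid2 (log2 change -3.60) and Phc1 (-3.59), both of Polycomb complexes. Their share of 36.8% lay near that of all probes. Of the 12 tested genes of limb and trunk position 8 were higher in passage 0 myoblasts than in stem cells, led by Zic1 (at least 79.3-fold) and Tbx15 (at least 43.4-fold), and 1 was lower, Tbx3 (3.11-fold). In quadriceps against day 4 myotubes 4 of 12 were higher, led by Meox2 (at least 46.2-fold) and Meox1 (at least 9.03-fold), and 3 were lower, led by Irx5 (at least 5.70-fold) and Irx3 (5.34-fold). Upstream signals gave 2 higher and 3 lower of 8 tested in passage 0 myoblasts against stem cells, with Cyp26b1, which degrades retinoic acid, 14.1-fold higher and Cdx1 24.3-fold lower. Of 9 ParaHox and Hox-like genes 3 were tested in that comparison and all 3 were lower, led by Gbx2 (at least 93.9-fold). None of the 9 was above background in every passage 0 sample. The 3 thus entered the test through the stem cells alone, and their shared direction says little.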

How the data were processed

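Total RNA was hybridised to 23 one-colour Agilent 8x60K arrays. Per the file headers, Feature Extraction 10.7.3.1 gave each spot a processed intensity; the deposited mean and background intensities served an alternative. The deposited flags of 0 or 1 mark spots above background. The authors also deposited log2 values whose normalization is not given in the sources used here, also an alternative. Probe positions are on mm9, per the file headers.

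The log2 processed signal was taken relative to each array's 75th percentile over spots that are not controls. Outlier spots were dropped, replicate spots averaged, and a gene was represented by its brightest probe. The limma model (version 3.58.1, R 4.3.3) had 1 mean for each of 7 groups over 21 samples, with 14 residual degrees of freedom, and 9 comparisons were made. Testing required that all samples of 1 of the groups compared were above background. Lower bounds set the dim group, on each array, at the dimmest probe that passed this flag, or at the probe's own signal where brighter. The cultures were compared over 12 arrays with stage as a block and 6 residual degrees of freedom.

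Alternatives were quantile normalization, normexp (offset 50), the deposited log2 values, other filters, the mean of probes, slide and replicate blocks, fits with fewer samples or with a NOD/ShiLtj muscle array among the quadriceps, and fits without single samples. The members and lists were chosen with earlier results of these data known. Named with all values were the 4 called members with the largest fold in each direction, each member called between muscle groups, genes with probes that disagree, and the 2 leading genes of a list. All 39 genes matched RefSeq by accession. The values of 2 called genes, 1 of them a Hox gene, are not reported here. Every pair of same-numbered replicates deviated together, at r over 0.1 across probes, in quadriceps against stem cells (0.148 to 0.315) and against day 4 (0.1 to 0.239), and in no other comparison of groups; the block changed the counts of calls in both by less than 1.5 times. Signal over background, and the number of arrays, limit the precision. The fits were tested on simulated data.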

Additional observations from a re-analysis of the deposited data

How the results depend on the processing

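No result changed direction under any alternative. Counts of Hox genes called moved by more than 1.5 times as follows. Requiring signal in both groups removes genes at background on 1 side and gave 2, 3 and 2 calls for passage 0 myoblasts, expanded myoblasts and quadriceps against stem cells, 0 at days 2 and 4, 1 and 3 for quadriceps against day 4 and passage 0, and 3, 0 and 0 for cultures 26 against 28, 21 against 28 and 26 against 21. The authors' values gave 16 for passage 0 against stem cells and 2 at day 1, and normexp gave 2 at day 1, 0 at day 4 and 5 for cultures 21 against 28. With no filter there were 0 at day 2, 18 for cultures 21 against 28 and 7 for 26 against 21. Day 2 fell to 0 also with the mean of probes, with the slide as a block, with only the groups compared and with the first E14tg2 array, and both days 2 and 4 fell to 0 without the 2 dimmest arrays. Only the groups compared gave 0 at day 4 and 14 for quadriceps against passage 0. The replicate block gave 1 at day 1, and within the 4 stages with culture numbers 2, 2 and 0 at days 1, 2 and 4; same-numbered arrays there did not all deviate together. The block changed no other count by over 1.5 times. Without the samples that go against their label of male the counts were 0 at days 2 and 4 and 2 and 3 for quadriceps against day 4 and passage 0, and the other 5 stayed within 1.5 times. The slide as a further block gave 0 for cultures 21 against 28. With 1 sample left out the counts were 20 to 22 for passage 0, 14 to 20 for expanded myoblasts and 18 to 20 for quadriceps against stem cells, 0 to 0 for expanded against passage 0 myoblasts and for day 1, 0 to 2 at day 2, 0 to 1 at day 4, 3 to 5 and 4 to 6 for quadriceps against day 4 and passage 0, and 10 to 15, 0 to 3 and 2 to 4 for cultures 26 against 28, 21 against 28 and 26 against 21. The causes of these moves were not tested. The culture fits, the 2 dimmest arrays, the label of male and the values with background arrays at the dimmest probe above it were alternatives chosen after seeing the data.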

Other observations

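A single skeletal muscle array of a NOD/ShiLtj mouse was added to quadriceps in an alternative and entered no other comparison. With it 19, 5 and 6 Hox genes were called in quadriceps against stem cells, day 4 and passage 0, and Hoxc8 was not called against passage 0 (adjusted p = 0.141). Its values lay close to quadriceps for several Hox genes, with Hoxc9 at 3.63, Hoxc10 at 2.70 and Hoxb6 at 2.49, and 23 of 39 Hox genes were above background. Hoxa11 was above background there, at -1.80.

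Single arrays stood apart for a few genes. Hoxb13 was at 0.09 on day 2 replicate 1 and at background on the other 17 muscle lineage samples. Hoxb9 was at 1.94 on day 1 replicate 3, where the other arrays of culture 28 had -1.89, -1.43 and -2.61. Hoxd10 was above background on passage 0 replicate 2 alone, at -4.44, and Hoxd3 on day 4 replicate 3 alone, at -3.80.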
